A study of Mus musculus with 9 samples.

Results

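Cells show fragments of their own proteins to cytotoxic T cells on major histocompatibility complex (MHC) class I molecules. The proteasome cuts proteins into peptides, the TAP transporter carries the peptides into the endoplasmic reticulum, and tapasin helps to load them onto a heavy chain that is paired with β2-microglobulin. Interferon and NF-κB are known to raise these genes, the transactivator NLRC5 drives their promoters, and tumors often lower them. Here, 10 genes of this pathway were read in MyC-CaP cells treated with asporin (ASPN), a protein secreted by stromal fibroblasts. They are the heavy chains H2-K1 and H2-D1, the light chain B2m, the transporter and loading genes Tap1, Tap2 and Tapbp, the immunoproteasome subunits Psmb8, Psmb9 and Psmb10, and Nlrc5. They were chosen by gene name, and each of the 10 names had 1 row among the 15384 protein-coding genes of the count table.

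MyC-CaP is a cell line from a prostate tumor of FVB mice that carry a Myc transgene driven in the prostate. Cells were starved of serum and calcium for some hours, given 100 ng/mL recombinant ASPN, and collected at 0, 12 or 24 hours, with 3 libraries labeled as biological replicates at each time. The study's methods describe plating in triplicate wells, and whether the 3 libraries come from separate experiments is not stated. The labels give ASPN as the treatment at 0 hours too, and these libraries are called time 0 below, as the study uses them. The 9 libraries include no ASPN-free cells of 12 or 24 hours, so ASPN and the hours after starvation cannot be told apart, and all 3 libraries of a time come from 1 line.

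Library totals over the whole table ran from 41881191 to 52993821 counts, and the floor of 3 counts was 0.0566 to 0.0716 in counts scaled to library size (CPM). Levels below are CPM scaled with TMM factors, which were 1.04 to 1.07 at 0 and 12 hours and 0.899 to 0.914 at 24 hours. Of 10 immune cell markers, 6 had a row in the table, the list summed to 0.291 to 0.815, 0.328 to 0.646 and 0.611 to 0.781 CPM at the 3 times in order, and the defining marker Ptprc had no row. Fibroblast markers summed to 13 to 14.1, 12.2 to 12.5 and 9.09 to 10.3 CPM at these times, mostly Pdgfra. The cells are labeled epithelial-like. Among markers of prostate epithelium, Krt8 (24.8 to 42.2 CPM) was well expressed, whereas Epcam and Krt5 were at or near 0 in every library. Cdh1 had 0 to 3 counts per library, apart from 24 hours replicate 3 with 10 (0.211 CPM). As the RNA is bulk, a change in RNA per cell and a change in the share of cells that express a gene cannot be told apart.

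Of the 10 genes, 9 passed the filter on low counts and were tested. All 9 were higher in every library of 12 hours, and in every library of 24 hours, than in any library of time 0. At 12 hours, 5 genes were called higher and none lower, namely Tap1, Tap2, Psmb8, Psmb9 and Psmb10, and H2-K1 and Tapbp rose by less than the fold threshold. At 24 hours, 6 were called higher and none lower, namely H2-K1, Tapbp, Tap2, Psmb8, Psmb9 and Psmb10, with Psmb9 and Psmb8 at 3.47-fold and 3.17-fold. Nlrc5 was at or near 0 counts throughout. Calls required a fold change of at least 1.5 together with an adjusted p (edgeR's quasi-likelihood test, Benjamini-Hochberg over all tested genes) no higher than 0.05. When edgeR's glmTreat asked instead for a fold change shown to exceed 1.5, the calls numbered 0 at 12 hours and 5 at 24 hours.

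**Figure D1:**
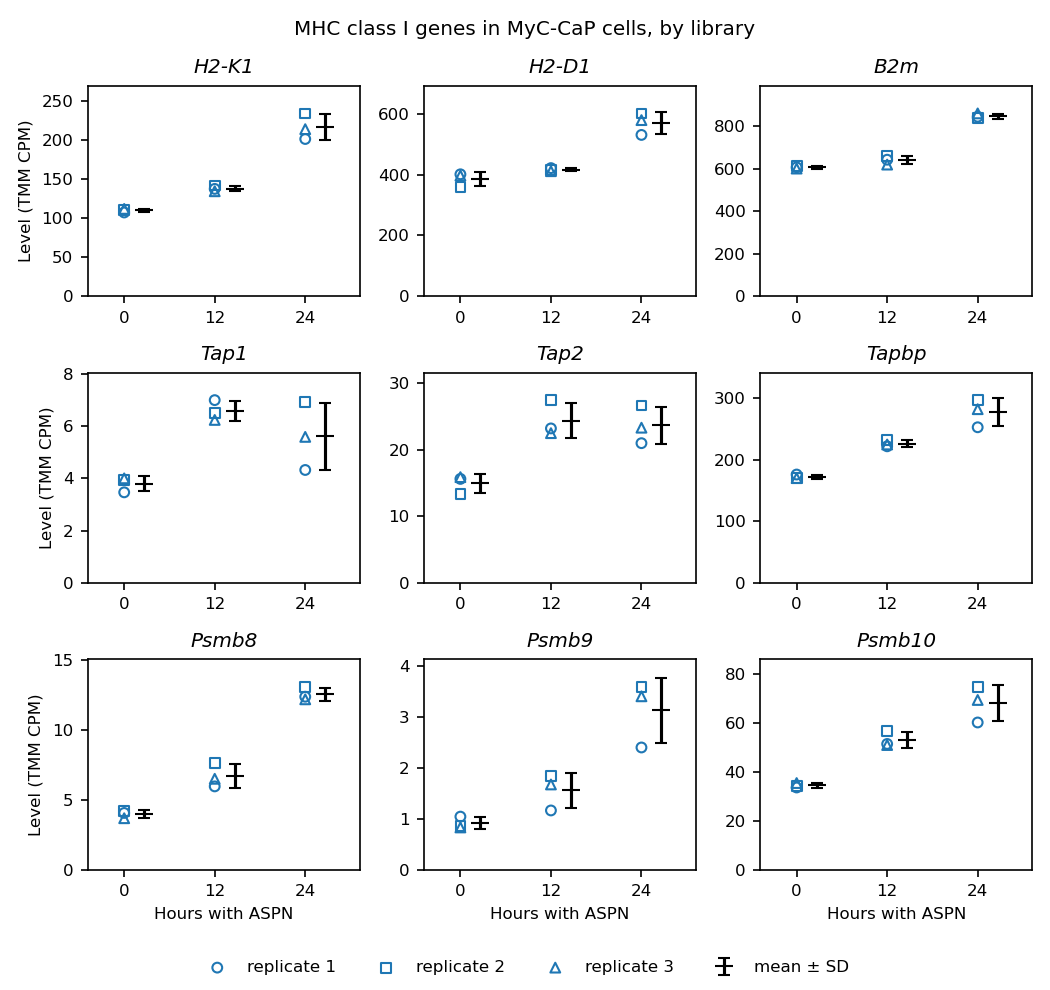
Level of each of the 9 tested genes in TMM-scaled CPM (linear axes from 0) against hours with ASPN. Open symbols are single libraries by replicate number, and the bar beside them is the mean ± SD (n = 3). Psmb8, Psmb9 and H2-K1 climb at both steps, Tap1 and Tap2 reach their 24-hour range by 12 hours, and B2m and H2-D1 move mainly between 12 and 24 hours.

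These counts are read against the background of all genes. At 12 hours, 1.60% of 11410 tested genes were called, 1.5% higher and 0.0964% lower, and 13.4% had every library above time 0. At 24 hours, 28.8% of 11444 were called, 12.0% higher and 16.8% lower, and 35.6% had every library above time 0. The median log2 fold change of the 9 genes was 0.63 at 12 hours and 0.69 at 24 hours, beside -0.005 and -0.02 for all tested genes. By the adjusted p alone, 7 of the 9 were higher at 12 hours (6.85% of all tested genes) and 9 at 24 hours (34.4%). Over all genes, 1374 were called higher and 1924 lower at 24 hours, and scaling by library totals turned this split into 698 and 3008 with the median at -0.24. The 9 genes stayed positive under that scaling, from 0.27 for B2m to 1.57 for Psmb9.

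H2-K1 and H2-D1 encode the classical heavy chains, which hold the peptide and are read by T cells. H2-K1 (ENSMUSG00000061232.16, chromosome 17, GRCm38, 33996017 to 34000347) was at 107, 111 and 112 CPM at time 0, at 138, 142 and 135 CPM at 12 hours and at 202, 235 and 214 CPM at 24 hours. The 3 times did not overlap. Its log2 fold change was 0.33 (SE 0.03, edgeR adjusted p = 2.1e-06) at 12 hours, under the fold threshold, and 0.98 (SE 0.05, edgeR adjusted p = 2.6e-09) at 24 hours.

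H2-D1 (ENSMUSG00000073411.12, chromosome 17, 35262730 to 35267499) was at 402, 360 and 398 CPM at time 0, at 422, 417 and 412 CPM at 12 hours and at 532, 603 and 580 CPM at 24 hours. The libraries of 12 hours lay just above those of time 0, while those of 24 hours were clearly higher. The log2 fold change was 0.11 (SE 0.04, edgeR adjusted p = 0.082) at 12 hours and 0.57 (SE 0.05, edgeR adjusted p = 6.7e-07) at 24 hours, which is 1.48-fold and so just under the threshold. It passed 1.5-fold when time 0 replicate 1 (0.62), time 0 replicate 3 (0.60) or 24 hours replicate 1 (0.62) was left out. Class I heavy chain genes are close copies of each other, the reference is C57BL/6J and the class I alleles of FVB differ from it, so how reads were divided among these genes is uncertain.

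B2m, the light chain that every class I heavy chain needs, was the most abundant of the genes. B2m (ENSMUSG00000060802.8, chromosome 2, 122147686 to 122153083) was at 606, 611 and 600 CPM at time 0, at 641, 658 and 618 CPM at 12 hours and at 843, 837 and 859 CPM at 24 hours. Against time 0, the log2 fold change was 0.08 at 12 hours (SE 0.03, edgeR adjusted p = 0.13) and 0.49 at 24 hours (SE 0.04, edgeR adjusted p = 9.0e-08). Every library of 24 hours lay above the others, at 1.40-fold of time 0.

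The sequences before the RefSeq starts of H2-K1 and B2m, and a short element of H2-D1, are shown because they hold the best-known elements of class I promoters. RefSeq promoter sequence (GRCm38.p6) was matched for 8 of the 10 genes, and Tap2 and Nlrc5 were not matched. Of the 250 bases before the start of B2m, the last is left out, which is the first base of the gene span in the count table. The 250 bases before the start of H2-K1, on the minus strand at chr17:34000348-34000597, and the other 249 bases of B2m, on the plus strand at chr2:122147437-122147685, read as follows. Capitals mark, in both, the NF-κB decamer (κB), the interferon-regulatory factor core AANNGAAA, the cyclic AMP element core TGACG and the CCAAT box, each on either strand.
H2-K1: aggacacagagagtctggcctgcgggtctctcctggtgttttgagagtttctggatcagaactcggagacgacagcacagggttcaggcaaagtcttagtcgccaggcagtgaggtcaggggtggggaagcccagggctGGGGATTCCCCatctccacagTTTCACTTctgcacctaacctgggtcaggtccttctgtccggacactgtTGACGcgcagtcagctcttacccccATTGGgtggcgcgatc
B2m: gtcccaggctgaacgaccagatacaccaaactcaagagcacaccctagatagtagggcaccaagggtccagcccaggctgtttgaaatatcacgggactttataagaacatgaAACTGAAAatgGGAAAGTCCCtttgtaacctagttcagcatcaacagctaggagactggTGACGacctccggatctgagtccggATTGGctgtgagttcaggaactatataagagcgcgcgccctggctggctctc

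H2-K1, H2-D1 and B2m each held all 4 motifs in the window before the RefSeq start. In H2-K1 and H2-D1, 2 overlapping κB matches and the interferon core lie within 30 bases, at chr17:34000429-34000458 (minus strand) and chr17:35262923-35262952 (plus strand).
H2-K1: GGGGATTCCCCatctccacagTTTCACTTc
H2-D1: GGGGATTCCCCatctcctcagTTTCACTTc
The H2-D1 element lies before the RefSeq start but inside the gene span of the count table, in an annotated UTR. The elements differ at 1 base, A18T (H2-K1 base, position from the first base shown, H2-D1 base), which lies between the motifs. The 2 heavy chains thus share this element in the reference, apart from that base. Their RNA differed in size of change, as given with the ratios of H2-K1 to H2-D1, and a link of the element to either change was not tested. Of the 8 matched promoters, κB was in 3 (7.25% of all 32851 RefSeq promoters of this length), the interferon core in 3 (21.3%), TGACG in 5 (17.8%), CCAAT in 6 (33.8%) and the interferon-γ-activated site TTCNNNGAA in 1, that of Psmb8 (7.02%). The motifs were chosen after these sequences had been seen, a match is a description of letters, and the sequence of MyC-CaP cells was not read.

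Tap1 and Tap2 encode the 2 chains of the peptide transporter. Tap1 (ENSMUSG00000037321.17, chromosome 17, 34187553 to 34197225) was at 3.47, 3.95 and 4.0 CPM at time 0, at 7.0, 6.52 and 6.24 CPM at 12 hours and at 4.32, 6.92 and 5.59 CPM at 24 hours. The 12-hour libraries were well above time 0, and the 24-hour libraries spread from just above time 0 to the level of 12 hours. The log2 fold change was 0.79 (SE 0.11, edgeR adjusted p = 6.2e-05) at 12 hours and 0.57 (SE 0.16, edgeR adjusted p = 0.0057) at 24 hours. The 24-hour value, 1.48-fold and so just under the fold threshold, was called without time 0 replicate 2 (0.60), time 0 replicate 3 (0.62) or 24 hours replicate 1 (0.72), and was 0.39 without 24 hours replicate 2. It was also called with length and GC offsets (0.78) and upper-quartile factors (0.60).

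Tap2 (ENSMUSG00000024339.12, chromosome 17, 34203527 to 34216321) was at 15.6, 13.4 and 15.9 CPM at time 0, at 23.2, 27.5 and 22.5 CPM at 12 hours and at 21.0, 26.7 and 23.3 CPM at 24 hours. The later times overlapped each other and lay above time 0. Its log2 fold change was 0.71 (SE 0.08, edgeR adjusted p = 1.1e-05) at 12 hours and 0.67 (SE 0.09, edgeR adjusted p = 2.4e-05) at 24 hours, the latter being 0.57 and below the fold threshold without 24 hours replicate 2. On the opposite strand, Gm15821 overlaps 14.1% of the Tap2 exon bases and Gm20496 overlaps 4.36%.

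Tapbp encodes tapasin, which bridges the transporter and the empty heavy chain. Tapbp (ENSMUSG00000024308.15, chromosome 17, 33915899 to 33929292) was at 176, 170.3 and 170.0 CPM at time 0, at 222, 232 and 225 CPM at 12 hours and at 253, 297 and 282 CPM at 24 hours. The times did not overlap, and the log2 fold change was 0.40 (SE 0.03, edgeR adjusted p = 1.6e-07) at 12 hours and 0.69 (SE 0.05, edgeR adjusted p = 8.1e-08) at 24 hours. An antisense gene, Gm19412, overlaps 24.9% of the Tapbp exon bases, and the strand setting of the counting is not given in the sources used here.

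The immunoproteasome subunits replace the 3 standard catalytic subunits of the proteasome and change which peptides are cut. Psmb8 (ENSMUSG00000024338.15, chromosome 17, 34197721 to 34201454), which takes the place of Psmb5, was at 4.05, 4.18 and 3.67 CPM at time 0, at 5.95, 7.64 and 6.49 CPM at 12 hours and at 12.4, 13.1 and 12.2 CPM at 24 hours. The 3 times were separate, with the 24-hour libraries close together. Its log2 fold change was 0.76 (SE 0.12, edgeR adjusted p = 2.3e-04) at 12 hours and 1.67 (SE 0.10, edgeR adjusted p = 5.6e-09) at 24 hours. The antisense gene Gm20496 overlaps 14.7% of its exon bases.

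Psmb9 (ENSMUSG00000096727.3, chromosome 17, 34181987 to 34187764), which takes the place of Psmb6, was at 1.04, 0.858 and 0.826 CPM at time 0, at 1.16, 1.83 and 1.67 CPM at 12 hours and at 2.39, 3.58 and 3.40 CPM at 24 hours. It was the lowest of the tested genes, with 40 to 50 counts per library at time 0 and 98 to 173 at 24 hours. The log2 fold change was 0.78 (SE 0.23, edgeR adjusted p = 0.035) at 12 hours and 1.79 (SE 0.21, edgeR adjusted p = 4.5e-06) at 24 hours. The call at 12 hours was made in 7 of 13 other settings and lost when any of time 0 replicates 2 and 3 and 12 hours replicates 2 and 3 was left out (edgeR adjusted p = 0.090 to 0.20), while the call at 24 hours was made in all 13 and with each library left out.

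Psmb10 (ENSMUSG00000031897.9, chromosome 8, 105935735 to 105938444), which takes the place of Psmb7, lies apart from the MHC. It was at 33.6, 34.3 and 35.5 CPM at time 0, at 51.5, 56.8 and 51.0 CPM at 12 hours and at 60.3, 74.9 and 69.5 CPM at 24 hours. The times did not overlap. Its log2 fold change was 0.63 (SE 0.05, edgeR adjusted p = 5.7e-08) at 12 hours, which fell to 0.58 and below the threshold without 12 hours replicate 2, and 0.99 (SE 0.07, edgeR adjusted p = 3.0e-08) at 24 hours.

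Nlrc5 (ENSMUSG00000074151.13, chromosome 8, 94434356 to 94527272) had 0, 5 and 0 counts at time 0, none in the libraries of 12 hours and 1, 0 and 0 counts at 24 hours. It was not tested, and no change was detectable at this depth.

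**Figure D2:**
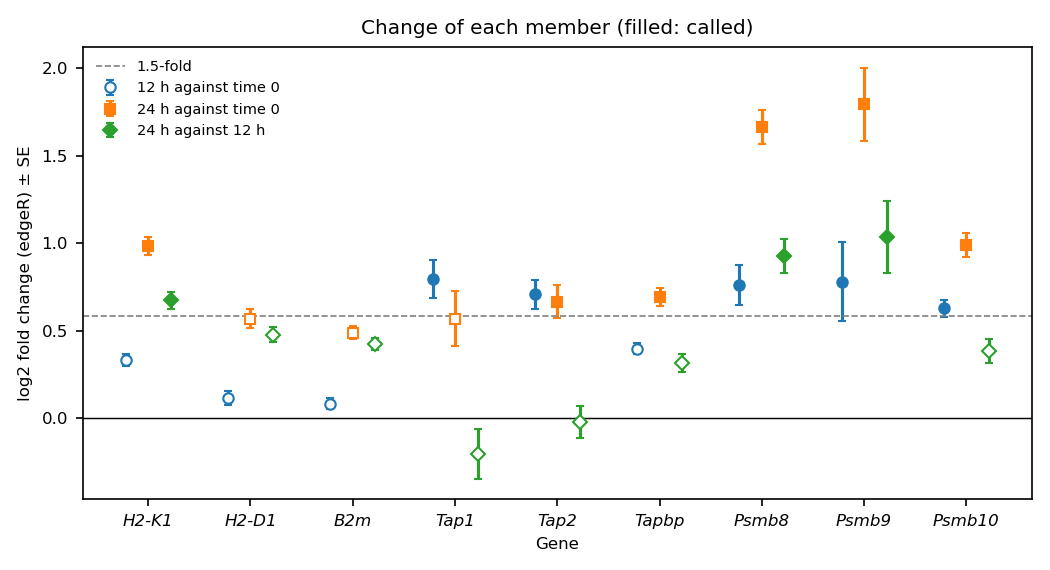
Log2 fold change (edgeR) with SE of each tested gene in 3 comparisons, circles for 12 hours against time 0, squares for 24 hours against time 0 and diamonds for 24 against 12 hours. Filled symbols were called, and the dashed line is 1.5-fold. The diamonds are highest for Psmb9, Psmb8 and H2-K1 and at or below 0 for Tap2 and Tap1.

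The comparison of 24 with 12 hours, which shares its libraries with the other comparisons, gives the second step alone. Psmb9 rose by a further 1.04 on the log2 scale (SE 0.21, edgeR adjusted p = 5.2e-04), Psmb8 by 0.93 (SE 0.10, edgeR adjusted p = 1.4e-06) and H2-K1 by 0.67 (SE 0.05, edgeR adjusted p = 4.6e-08). These 3 of 9 were called higher and none lower, where 25.7% of 11394 tested genes were called, 10.4% higher and 15.3% lower (1184 and 1740, or 484 and 2830 with library totals). H2-D1 (0.48), B2m (0.43), Psmb10 (0.38) and Tapbp (0.32) passed the adjusted p without reaching 1.5-fold, which makes 7 of 9 higher by the adjusted p alone (35.7% of all tested genes), and the same number lay above 12 hours in every library (35.5%). Tap1 had a log2 fold change of -0.20 (SE 0.14, edgeR adjusted p = 0.22) and Tap2 of -0.02 (SE 0.09, edgeR adjusted p = 0.85).

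Per kilobase of the principal transcript, the genes spanned about 3 orders of magnitude in level. B2m stood highest, with 704 ± 6.46 CPM per kb (SD, n = 3) at time 0 and 984 ± 13.4 at 24 hours, followed by H2-D1 with 184 ± 10.8 and 272 ± 17.3, H2-K1 with 68.0 ± 1.46 and 134 ± 10.2, and Tapbp with 59.4 ± 1.13 and 95.6 ± 7.74. Psmb10 came next, with 26.3 ± 0.702 CPM per kb at time 0 and 52.0 ± 5.63 at 24 hours. The lowest levels at time 0 were those of Tap2 with 4.35 ± 0.406, Psmb8 with 2.44 ± 0.163, Tap1 with 1.29 ± 0.0995 and Psmb9 with 0.671 ± 0.0846 CPM per kb. By 24 hours Psmb8 (7.70 ± 0.289) stood beside Tap2 (6.88 ± 0.827), and Psmb9 (2.31 ± 0.473) beside Tap1 (1.90 ± 0.439), each pair within the spread of its libraries. The order of the genes above these 4 was the same at time 0 and 24 hours.

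Ratios within a library do not depend on the scaling between libraries. Psmb8 was at 4.18%, 4.32% and 3.50% of Psmb5 per kb at time 0, at 6.08%, 7.43% and 6.39% at 12 hours and at 12.5%, 12.5% and 11.7% at 24 hours. Psmb9 was at 1.23%, 0.980% and 0.943% of Psmb6 at time 0, at 1.44%, 1.97% and 1.90% at 12 hours and at 2.80%, 3.65% and 3.49% at 24 hours. Both ratios rose at each step without overlap between the times, to 3.07-fold and 3.15-fold of time 0. Even at 24 hours, RNA of the standard subunits stood well above that of Psmb8 and Psmb9.

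Psmb10 was far closer to its counterpart. It was at 48.2%, 47.9% and 47.5% of Psmb7 at time 0, at 71.4%, 83.3% and 67.9% at 12 hours and at 58.9%, 72.6% and 63.8% at 24 hours, so that the later times overlapped each other. Psmb7 had itself a log2 fold change of 0.55 (SE 0.05, edgeR adjusted p = 1.6e-07) at 24 hours, while Psmb5 (0.05) and Psmb6 (0.12) did not pass the adjusted p, and none of these 3 was called at any time. With 3 libraries against 3, the exact two-sided permutation test cannot go below 0.1, and 8 of the 9 ratio comparisons gave that p (0.1125 adjusted over the 9), the exception being Psmb10 to Psmb7 between 12 and 24 hours (exact permutation p = 0.3).

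Other ratios were added after the values had been seen. H2-K1 rose against H2-D1, from 37.0% per kb (mean over libraries on the log scale) at time 0 to 43.0% at 12 hours and 49.3% at 24 hours, and against B2m, from 9.65% to 11.5% and 13.6%, with no overlap between any of the times. Psmb9 and Tap1 lie head to head, on opposite strands with 225 bases between the RefSeq start sites (34187330 and 34187556 on chromosome 17), and share a TGACG at 34187470 to 34187474 and a CCAAT box at 34187334 to 34187338 between them, each counted for both genes in the numbers of promoters above. Psmb9 was at 51.9% of Tap1 per kb at time 0 and at 50.6% at 12 hours (exact permutation p = 0.9), and at 122% at 24 hours. The 3 libraries of 24 hours (121%, 113% and 133%) lay above the 6 others (36.2% to 65.4%). The genes share 212 exon bases, 3.87% of those of Tap1 and 5.79% of those of Psmb9. Psmb8 to Tap1 moved likewise, from 189% and 184% to 412%, and every 24-hour comparison of these ratios had an exact permutation p of 0.1, the smallest possible (0.12 adjusted over the 12 added tests).

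**Figure D3:**
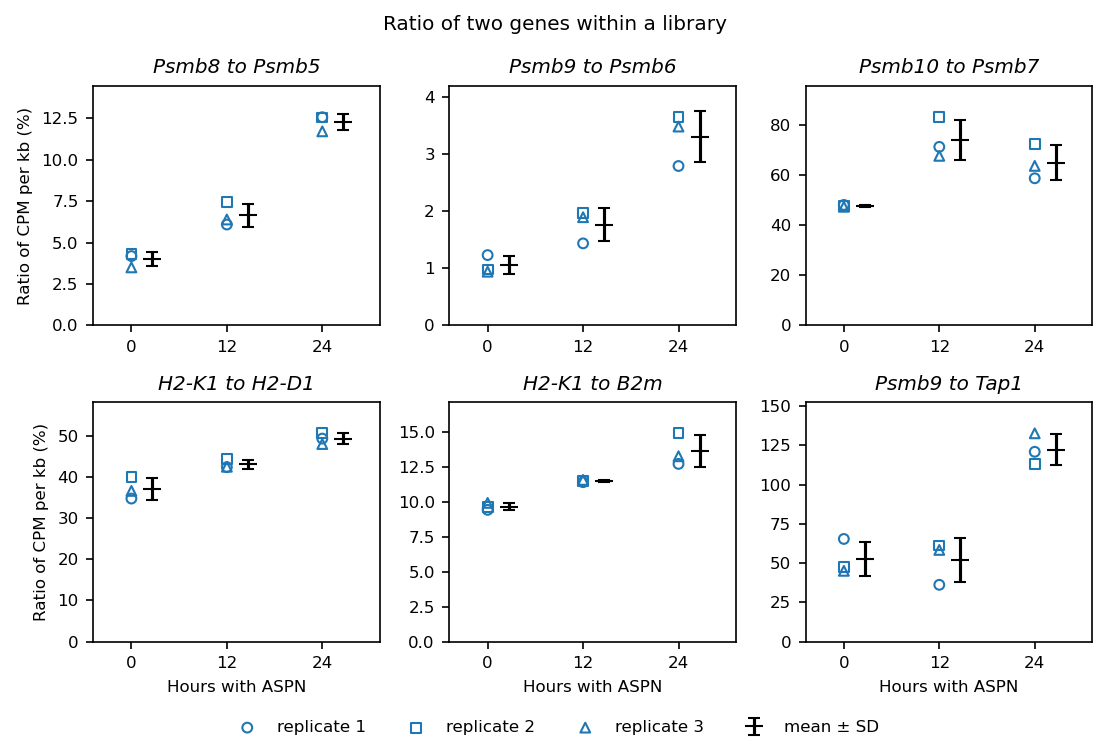
Ratio of the levels per kb of 2 genes within a library, in percent on linear axes from 0, against hours with ASPN, with open symbols for libraries and bars for mean ± SD (n = 3). Psmb8 to Psmb5 and Psmb9 to Psmb6 rise at both steps, whereas Psmb9 to Tap1 is flat to 12 hours (50.6%) and higher at 24 hours (122% on the log-scale mean).

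One library of each later time moved with several genes. At 12 hours, replicate 2 was the highest of its 3 libraries for 7 of the 9 genes. At 24 hours, replicate 1 was the lowest for 7 of the 9 and replicate 2 the highest for 8. The part of this in the spread was not tested, and the values without 1 library are given above for the calls near the threshold.

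Of 20 class I and class I-like genes listed, 16 had a row and 9 were tested. At 12 hours none was called by edgeR (2 at an unadjusted p under 0.05), DESeq2 or limma-voom, where edgeR called 1.60% of all tested genes. At 24 hours 4 were called higher and none lower, where 12.0% of all tested genes were called higher and 16.8% lower. H2-T22, a nonclassical heavy chain, was at 5.11, 4.18 and 4.90 CPM at time 0, at 5.07, 5.36 and 4.62 CPM at 12 hours and at 10.6, 9.49 and 9.50 CPM at 24 hours, with a 24-hour log2 fold change of 1.06 (SE 0.11, edgeR adjusted p = 1.1e-06). The others were H2-Q1 (0.98), H2-M3 (0.85), which presents formylated peptides, and Hfe (0.71), a regulator of iron uptake with about 1 CPM, whose call was lost in 5 of 13 alternatives, DESeq2 among them, and in 4 of 6 fits without 1 library. The other 5 tested genes were not called. The median of the list was 0.09 at 12 hours and 0.40 at 24 hours.

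Of 7 chaperones and peptidases of the endoplasmic reticulum, all tested, none was called at 12 hours by edgeR, DESeq2 or limma-voom, where edgeR called 1.60% of all tested genes. At 12 hours 2, Tapbpl and Erap1, were higher by edgeR's adjusted p alone, as were 6.85% of all tested genes. The same 2 had an unadjusted p under 0.05. At 24 hours 2 of the 7 were called higher and 1 lower, where 12.0% of all tested genes were called higher and 16.8% lower. Tapbpl, the tapasin-related peptide editor, went from 19.7, 19.4 and 18.5 CPM at time 0 to 24.9, 28.1 and 25.5 CPM at 12 hours and 43.7, 47.1 and 44.5 CPM at 24 hours, a log2 fold change of 1.24 (SE 0.06, edgeR adjusted p = 7.4e-10) at 24 hours. Erap1, which trims peptides to the length that class I holds, rose by 1.00 (SE 0.05, edgeR adjusted p = 1.5e-09), and the aminopeptidase Lnpep fell by 0.60, a call lost in 3 of 13 alternatives and in 3 of 6 fits without 1 library. The general chaperones Calr (-0.24) and Canx (0.25) stayed under the fold threshold, and the list's median was -0.004 at 12 hours and 0.09 at 24 hours.

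Around the proteasome, the activator subunits Psme1 and Psme2, which form the interferon-inducible PA28 cap, were called at 24 hours (0.78 and 0.84, Psme1 not with library totals) and the assembly factor Psmg2 fell by 0.61, out of 7 activators and assembly factors with a median of -0.08. These were 2 called higher and 1 lower of the 7, where 12.0% of all tested genes were called higher and 16.8% lower. Psme2 was at 94.8, 98.7 and 97.0 CPM at time 0, at 119, 122 and 116 CPM at 12 hours and at 166, 179 and 174 CPM at 24 hours, with no overlap of the times. Of 11 other subunits of the 20S core, 10 were higher by the adjusted p at 24 hours, as were 34.4% of all tested genes. Of these subunits 1, Psmb1, was called (0.60), where 28.8% of all tested genes were called, 12.0% higher. The list had a median of 0.39. Of the 6 fits without 1 library, the call of Psmg2 was lost in 2 and that of Psmb1 in 1, and of the 13 alternatives in 2 and 4. Of 5 cytosolic peptidases tested, none was called at 12 or 24 hours against time 0 by edgeR, DESeq2 or limma-voom, with medians of -0.05 and 0.25. For all tested genes, edgeR called 1.60% and 28.8%. In edgeR, 1 and 4 of the 5 passed the adjusted p alone, where 1178 of 11410 and 8119 of 11444 tested genes did. An unadjusted p under 0.05 was found for 2 and 4 of the 5, and for 2437 and 8329 of all tested genes.

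**Figure D4:**
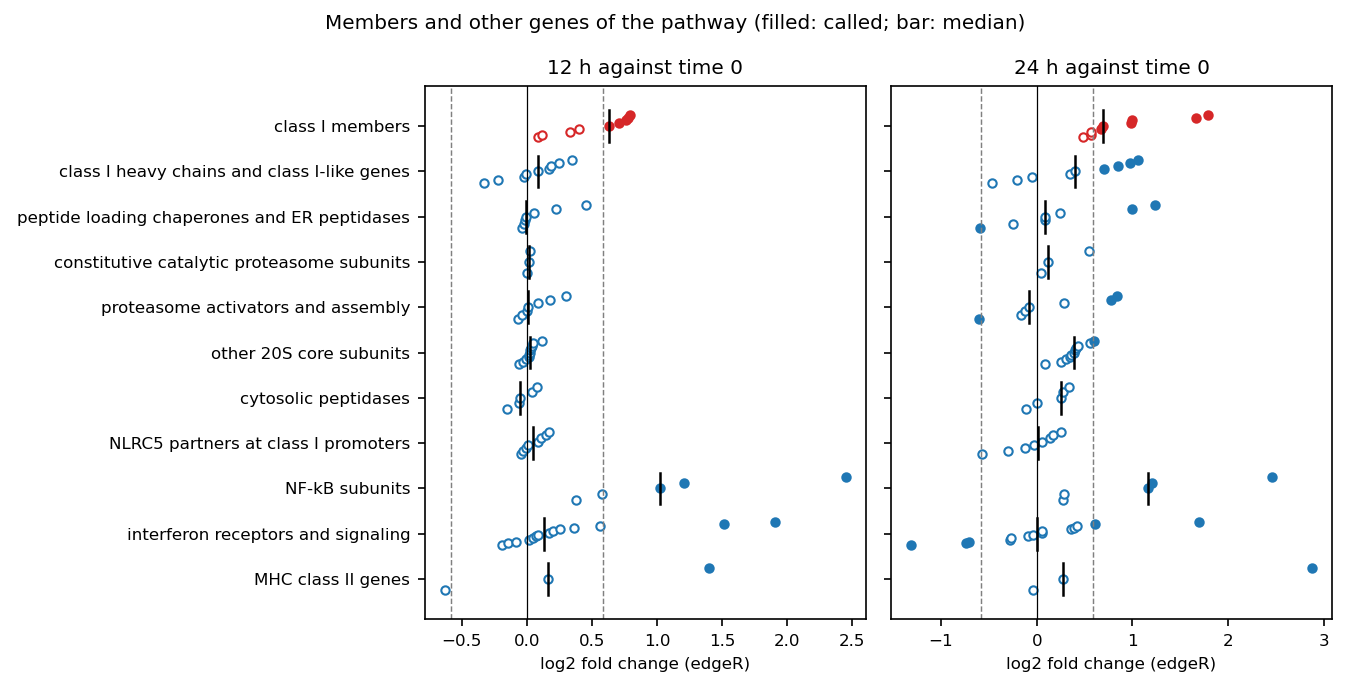
Log2 fold change (edgeR) of the class I genes (red) and of the other genes of the pathway by list (blue) at 12 and 24 hours against time 0. Each circle is a gene, filled where called, black bars are medians, and dashed lines mark 1.5-fold either way. At 12 hours the class I genes and the NF-κB subunits have medians of 0.63 and 1.02, and the medians of the other lists lie between -0.05 and 0.17.

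Among the regulators, the NF-κB subunits Relb, Rel and Nfkb2 were called at both times, out of 5. Relb went from 8.76, 8.13 and 6.92 CPM at time 0 to 42.2, 46.8 and 40.2 CPM at 12 hours and 37.6, 48.5 and 43.5 CPM at 24 hours, and was 2.45 higher on the log2 scale at both times (SE 0.08 and 0.10, edgeR adjusted p = 6.9e-13 and 3.8e-10). Nfkb2 was 1.21 higher at both times and Rel 1.02 and 1.16, while Nfkb1 (0.57 and 0.29) and Rela (0.38 and 0.27) passed the adjusted p without reaching 1.5-fold. The list had a median of 1.02 at 12 hours and 1.16 at 24 hours.

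Irf1, an interferon-regulatory factor that activates class I and immunoproteasome genes, was at 51.3, 52.7 and 51.1 CPM at time 0, at 145, 150.4 and 146 CPM at 12 hours and at 47.5, 55.8 and 56.7 CPM at 24 hours. It rose by 1.51 (SE 0.03, edgeR adjusted p = 8.1e-15) at 12 hours and had a log2 fold change of 0.05 (edgeR adjusted p = 0.47) at 24 hours. Psmb8, Psmb9 and H2-K1 were at their highest at 24 hours, when Irf1 was back near its level of time 0. A link between Irf1 and these genes was not tested. Ifngr2, a chain of the interferon-γ receptor, went from 1.47, 1.76 and 1.45 CPM to 5.38, 6.80 and 5.30 CPM and then 4.40, 4.56 and 6.12 CPM, and was called at both times (1.91 and 1.70).

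Of 14 interferon receptor and signaling genes, 2 were called higher at 12 hours, and at 24 hours 2 were higher (Ifngr2 and Ifnar2, 0.61) and 3 lower (Ifnar1 -0.71, Stat2 -0.74 and the inhibitor Socs1 -1.31), with medians of 0.13 and 0.01, where 12.0% of all tested genes were called higher and 16.8% lower at 24 hours. The call of Ifnar2 was lost in 4 of 13 alternatives and in 2 of 6 fits without 1 library, and that of Stat2 in 2 alternatives, with length and GC offsets (-0.56) and with these offsets plus the replicate block. Of 6 interferon ligands, 2 had a row and none was tested. Ifnb1 had 1 count over the 9 libraries and Ifnk 5.

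**Figure D5:**
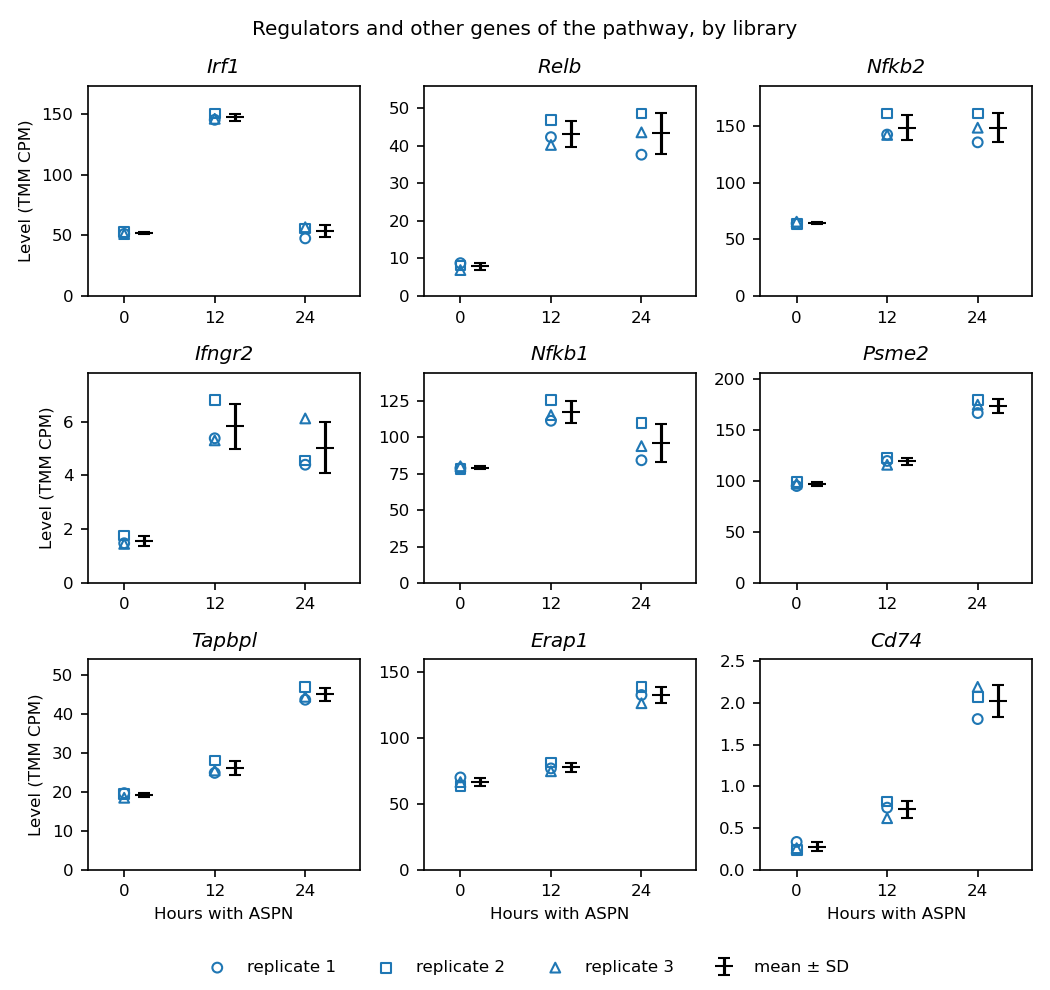
TMM-scaled CPM of 9 other genes of the pathway (linear axes from 0) against hours with ASPN, with open symbols for libraries and bars for mean ± SD (n = 3). Irf1 is high at 12 hours and back near time 0 at 24 hours, Relb and Nfkb2 are high at both times, Nfkb1 is highest at 12 hours on average, and Psme2, Tapbpl, Erap1 and Cd74 are highest at 24 hours.

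The 8 partners of NLRC5 at class I promoters are the RFX, NF-Y and CREB family subunits. None was called at 12 or 24 hours against time 0 by edgeR, DESeq2 or limma-voom, with medians of 0.05 and 0.01. For all tested genes, edgeR called 1.60% and 28.8%. In edgeR, 1 and 5 of the 8 passed the adjusted p alone, where 1178 of 11410 and 8119 of 11444 tested genes did. An unadjusted p under 0.05 was found for 3 and 5 of the 8, and for 2437 and 8329 of all tested genes. Nfya, a CCAAT-binding subunit, had a log2 fold change of -0.57 at 24 hours against time 0, and was called lower at 24 than at 12 hours (-0.70), but not with length and GC offsets (-0.53), with or without the replicate block. Of the MHC class II genes, 3 were tested and Cd74, the invariant chain, was called at both times (1.40 and 2.88), the 12-hour call being lost with glmTreat and without 12 hours replicate 2 (1.31). It was at 0.236 to 0.332 CPM at time 0 (11 to 16 counts per library) and 1.81 to 2.19 CPM at 24 hours. The class II transactivator Ciita had 0 to 8 counts per library.

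On chromosome 17, 66 genes other than the 10 had a row with its lowest coordinate from that of H2-K1 (33996017, the 3′ end of this minus-strand gene) to that of H2-D1 (35262730), and 46 were tested. At 12 hours 1 of them was called higher and none lower, Tnf, with 0 counts in each library of time 0 and 20, 11 and 24 counts at 12 hours. Tnf had 13, 10 and 18 counts at 24 hours and did not pass the filter on low counts in that comparison. At 24 hours 1 was higher, Gpank1, and 7 were lower, and the median of the interval was -0.02 at both times. These are 2.17% and 17.4% of the 46, where 1.60% and 28.8% of all tested genes were called. By the adjusted p alone, 2 and 30 of the 46 passed, where 1178 of 11410 and 8119 of 11444 tested genes did. These genes were named after their values were seen.

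As a description over the 9 libraries, which share the 3 times and their depths, the genes most like H2-K1 in log2 CPM among 9272 were Cd44 (Pearson's r = 0.999), Psme2 (0.998) and Prkab1 (0.997), and 572 genes had an r over 0.95. For Psmb8 they were Tgif1 (0.994), Suco (0.993) and Tapbpl (0.993), out of 247 over 0.95. For Tap1 they were Itga5 (0.975), Tyk2 (0.964) and Dlx2 (0.956), and 4 genes were over 0.95. These counts also depend on the spread between libraries, which was wide for Tap1 at 24 hours.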

How the data were processed

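Total RNA of MyC-CaP cells was sequenced by the authors from TruSeq mRNA libraries as paired-end reads, which they trimmed with cutadapt, aligned with STAR to GRCm38.p6 and counted per gene with featureCounts. The deposited values are raw read counts, with no normalization. Samples were grouped by the time in their labels, with 3 libraries per time and 41881191 to 52993821 counts per library. Intervals of counting error were not needed, and the floor of 3 counts covers counting error only. Libraries of the same time differed beyond sampling noise (chi-square per degree of freedom 3.48 to 18.2), and p-values measure the spread between these libraries.

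For each pair of times, filterByExpr removed low counts, TMM gave the scaling factors, and the quasi-likelihood test was that of edgeR 4.0.16 in R 4.3.3 on the 6 libraries of the pair. CPM were scaled over all 9 libraries, and SE is the log2 fold change divided by the root of its F statistic. Alternatives used DESeq2 1.42.0, limma 3.58.1, other scalings, filters and thresholds, length and GC offsets (loess span 0.3), a replicate block and each library left out. Ratios were tested with exact permutation tests in scipy 1.17.1. Calculations were tested on simulated data. Gene positions are from the deposited table, and lengths are of APPRIS principal transcripts in GENCODE vM21, in which 15374 of 15384 genes matched by identifier without version. Upstream sequences are from RefSeq.

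The 10 genes, the lists and the tests were chosen with earlier results of these data known. Genes named are all 10, their constitutive counterparts, listed genes called in a comparison with a mean of at least 10 counts per library in 1 group, and the 3 most correlated genes (mean CPM of at least 5) for H2-K1, Tap1 and Psmb8. Nlrc5 was to be included there but was not tested. The authors' LNCaP libraries were not analysed here. Some genes of the lists are not reported here.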

Additional observations from a re-analysis of the deposited data

Results flagged for a closer look

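Between 12 and 24 hours, the change from time 0 differed for 20 of 81 tested genes of the pathway by the direct test of 24 against 12 hours (edgeR, adjusted p of 0.05 or less and 1.5-fold). This share of 24.7% is near the 25.7% of all tested genes, so the number of calls is no result about the pathway, and the values are given gene by gene. Of the 10 class I genes these were Psmb9 (log2 difference 1.04), Psmb8 (0.93) and H2-K1 (0.67). Among the other class I genes H2-T22 (0.99), H2-Q1 (0.65), H2-Q4 (0.63) and H2-M3 (0.62) were higher at 24 hours, as were the class II genes Cd74 (1.5) and H2-DMb1 (0.92). Of the loading and proteasome genes, Tapbpl (0.81), Erap1 (0.80), Psme1 (0.62) and Psmb1 (0.60) were higher, and Lnpep (-0.63) and Psmg2 (-0.60) lower. Among regulators, Irf1 (-1.44), Socs1 (-1.14), Ifnar1 (-0.73), Nfya (-0.70) and Ifngr1 (-0.63) were lower at 24 hours. Of 13 alternatives and 6 fits without 1 library, the call of H2-DMb1 was lost in 5 (DESeq2 among them) and 4, that of Psmb1 in 5 and 2, those of H2-Q1 and H2-M3 each in 4 and 3, that of H2-Q4 in 4 and 1, that of Psme1 in 4 and 0, that of Psmg2 in 2 and 2, those of Nfya and H2-K1 each in 2 and 0, that of Ifngr1 in 1 and 1, and those of Tapbpl, Erap1 and Lnpep each in 1 and 0. The calls of Psmb9, Psmb8, H2-T22, Cd74, Irf1, Socs1 and Ifnar1 were made in all of them.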

How the results depend on the processing

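The 13 alternatives and the fits without 1 library kept the direction of every class I gene against time 0. Of the 10 class I genes, 5 were called at 12 hours, and 0 with glmTreat at 1.5-fold, whose test is of a fold above 1.5, and 3 to 5 when a library was left out (3 without 12 hours replicate 2). At 24 hours 6 were called, and 4 to 9 over the alternatives. Against 12 hours 3 were called, and 7 by the adjusted p alone. Of 72 listed genes tested, 6, 20 and 17 were called in the 3 comparisons (8.33%, 27.8% and 23.6%, beside 1.60%, 28.8% and 25.7% of all tested genes). By the adjusted p alone, 20, 54 and 49 of the 72 passed, where 1178 of 11410, 8119 of 11444 and 8124 of 11394 tested genes did. For 24 against 12 hours the listed genes called were also 8 with glmTreat and 11 with library totals, with length and GC offsets, and with these offsets plus the replicate block. In the MHC interval 1, 8 and 9 were called, and 2, 30 and 32 by the adjusted p alone, 4 and 5 with glmTreat at 24 hours against time 0 and against 12 hours, 0 at 12 hours with at least 10 counts in every library, and 1 to 2 at 12 hours when a library was left out (2 without time 0 replicate 1). Between 12 and 24 hours the sign turned for Tap1 with length and GC offsets (0.0082), and for Tap2 with upper-quartile factors (0.0030), these offsets (0.083), the offsets with the replicate block (0.083) and without 1 library (-0.116 to 0.0708, 0.0547 without 24 hours replicate 1), none of them called. The cause was not tested.

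The replicate numbers did not pair the samples (correlation of deviations -0.10 to 0.05), and with the replicate block the call of Psmb9 at 12 hours was lost (log2 fold change 0.77, edgeR adjusted p = 0.070). Among calls of the class I genes near the fold threshold, Tap2 (0.45) and Tapbp (0.47) at 24 hours and H2-K1 between 12 and 24 hours (0.45) were lost with library totals. B2m (0.61) and Tap1 (0.78) at 24 hours were called with length and GC offsets, and Tap1 (0.60) and H2-D1 (0.60) with upper-quartile factors. Ratios kept their direction under both alternatives and with a library left out, apart from the near-zero 12-hour ratios of Psmb9 and Psmb8 to Tap1. Of 43 called changes of listed genes, 21 changed their call under an alternative, 13 with a library left out and 0 their sign. Psmb9, with 40 to 50 counts per library at time 0, and Nlrc5 are limited by depth.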
